A study of Homo sapiens with 12 samples.

Results

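The regions described here are pairs of alternative 3' splice sites more than 3 nt apart in the human genome, as quantified with vast-tools in HEK293T cells. A pair was taken where an alternative 3' splice site event of the deposited inclusion table had exactly 2 sites, where the distance between the sites was above 3 nt, and where the 2 sites together had at least 20 reads in each of the 12 libraries. This gave 19656 site pairs in 7070 genes, out of 721551 splicing events in the table. No measured difference between groups entered this choice, only the distance and the read depth.

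The study expressed a catalytically dead RNA-targeting Cas13d protein, dCasRx, alone or fused to a splicing regulator, together with a guide RNA, and sequenced poly(A) RNA. The cells were HEK293T, a line from human embryonic kidney, transfected with 200 ng of effector vector and 200 ng of guide vector and harvested after 48 hours. The 6 groups had 2 libraries each. dCasRx-RBM25, a fusion with the splicing regulator RBM25, was combined with a nontargeting guide, with a guide for MAPT exon 10 or with a guide for CD46 exon 13. RBFOX1N-dCasRx-C, which carries parts of the splicing regulator RBFOX1, was combined with the nontargeting or the MAPT guide. dCasRx alone was combined only with the nontargeting guide, so that comparisons with dCasRx pool the guides of an effector. All 12 libraries thus came from cells that carried dCasRx and a guide, and no untransfected library is among them. The labels do not say whether replicates came from separate experiments, so p-values measure only the spread between these libraries. The libraries are bulk RNA, in which a change in fewer cells and a smaller change in every cell cannot be told apart.

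An intron ends at a 3' splice site, an AG dinucleotide that usually follows a tract of pyrimidines and a branch point. U2AF recognises the tract and the AG, SF1 and then the U2 snRNP with its SF3A and SF3B subunits recognise the branch point, and the spliceosome picks the AG in the second step of splicing. Where 2 AGs compete, use of the upstream one adds the stretch between them to the exon. A stretch whose length is a multiple of 3 adds or removes amino acids, and any other length shifts the reading frame, which often leads to nonsense-mediated decay. PSI, the percentage of an event's reads that join to the upstream site, is the measure used throughout. It reflects the RNAs that were present, so that making and decay of an RNA cannot be told apart.

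The sequences at 10 site pairs whose use differed between effectors are shown, since the comparisons turn on them. They come from GENCODE 29 transcripts on hg38 and are written 5' to 3' on the RNA's strand with the AG of the 3' splice site in capitals.
NACA: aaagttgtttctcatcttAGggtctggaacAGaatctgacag
VEZF1: ttttcctccctcatgcAG
DCLRE1A: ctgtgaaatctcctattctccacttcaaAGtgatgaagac
FAM58A: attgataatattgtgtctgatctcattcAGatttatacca
UHMK1: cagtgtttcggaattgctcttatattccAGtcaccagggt
ZBTB8A: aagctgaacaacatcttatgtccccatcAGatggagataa
EP400: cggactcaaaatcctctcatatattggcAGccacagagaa
TJP1: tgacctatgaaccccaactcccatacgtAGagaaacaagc
CEP170: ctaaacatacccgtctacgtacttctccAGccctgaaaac
PAPD5: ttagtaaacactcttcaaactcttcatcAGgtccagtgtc
The NACA line (chr12:56714666-56714707, minus strand) covers both AGs, from 20 bases before the upstream exon start to 10 bases past the downstream one. The VEZF1 line (chr17:57980787-57980804, minus strand) is the whole stretch of 18 nt between the sites. The other 8 lines show 30 bases before and 10 bases after the downstream exon start. They lie at chr10:113850181-113850220, minus strand, for DCLRE1A, chrX:153588385-153588424, minus strand, for FAM58A and chr1:162500034-162500073, plus strand, for UHMK1. ZBTB8A lies at chr1:32600238-32600277, plus strand, EP400 at chr12:132011577-132011616, plus strand, and TJP1 at chr15:29718993-29719032, minus strand. CEP170 lies at chr1:243156338-243156377, minus strand, and PAPD5 at chr16:50225209-50225248, plus strand. All 10 stretches lie in coding sequence of GENCODE 29. The letters between the sites are themselves exonic when the upstream site is used, and in NACA the pyrimidine-rich letters stand before the upstream AG.

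The gene counts of the libraries summed to between 32487927 and 53985468. RBM25 took 4.08 to 5.69% of the counts in the libraries labelled dCasRx-RBM25 and 0.0200 to 0.0381% in the other 6. All 7 HEK293T markers were present, at a summed 978 to 1220 CPM, counts scaled to the library total, and markers of other cell types summed to 2.13 to 3.39 CPM. The site pairs had a median of 112 to 151 reads in the dCasRx-RBM25 libraries, 107 to 125 in the RBFOX1N-dCasRx-C libraries and 101 in each dCasRx library. In a principal component analysis of the tested site pairs the first component held 15.5% of the variance, and the second dCasRx library stood apart on it at 48.2, against 15.3 for the first dCasRx library and -14.7 to 1.98 for the other 10. The second component, with 12.8%, separated the dCasRx-RBM25 libraries (8.24 to 17.8) from the RBFOX1N-dCasRx-C libraries (-24.1 to -14.5). Comparisons with dCasRx rest on 2 libraries that differ from each other, and each is given below also without one of them.

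Most site pairs had 1 site that took nearly all the reads, and which one depended on the distance between them. The mean PSI over the 12 libraries was over 90 in 10691 pairs (54.4%), under 10 in 8395 (42.7%) and between 10 and 90 in 570 (2.90%). At distances of 4 to 12 nt the upstream site dominated, with a mean PSI over 90 in 5201 of 5542 pairs and under 10 in 206. At 13 to 50 nt, the class with most pairs, the order was the other way, with 5142 of 8599 under 10 and 3249 over 90. The distances ran from 4 to 499 nt with a median of 25 nt, and 4557 pairs were 51 to 200 nt apart and 958 over 200 nt apart. The largest number at any single distance was 1525 pairs at 4 nt.

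**Figure D1:**
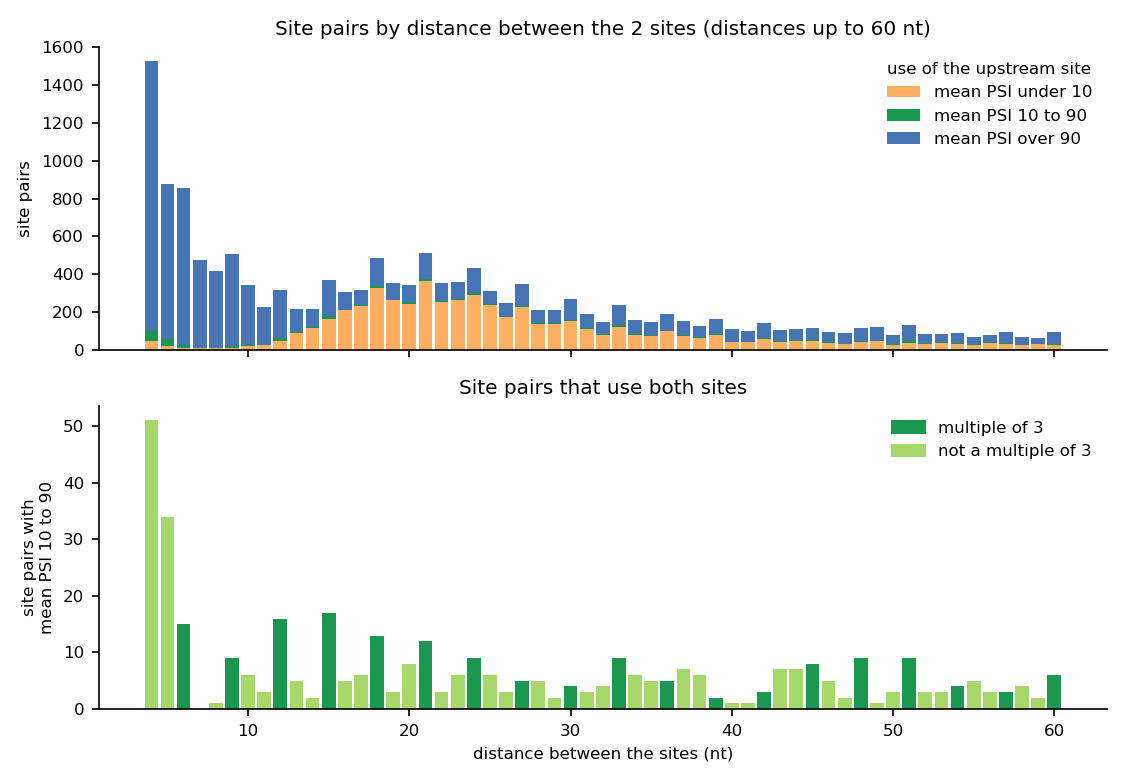
Number of site pairs (y axis) at each distance between the sites in nt (x axis, up to 60 nt); the upper panel stacks them by mean PSI of the upstream site, and the lower panel shows those with mean PSI from 10 to 90, by whether the distance is a multiple of 3. Pairs up to 12 nt apart mostly use the upstream site, pairs 16 to 36 nt apart more often the downstream one, and the pairs that use both are most numerous at 4 nt (51) and 5 nt (34).

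Pairs that used both sites were spread over all distances: 135 of the 570 at 4 to 12 nt, 208 at 13 to 50 nt, 199 at 51 to 200 nt and 28 over 200 nt. At 4 and 5 nt, distances that shift the reading frame, 51 and 34 pairs used both sites. At 6, 9 and 12 nt, which keep it, 15, 9 and 16 did, and at 7 and 8 nt 0 and 1 did. The number of pairs differed between these distances, from 1525 at 4 nt to 317 at 12 nt. By share, both sites were used in 5.05% of the pairs at 12 nt, 3.88% at 5 nt and 3.34% at 4 nt. The shares at 6, 7, 8 and 9 nt were lower than these. A multiple of 3 was the distance of 36.2% of all pairs and of 37.5% of those that used both sites. By place, the stretch between the sites was coding in 10974 pairs, of which 3999 had a multiple of 3, and lay within an annotated intron in 5774, of which 5749 had a mean PSI under 10. Both sites were used in 80 of the 574 pairs in 5' untranslated regions (13.9%), in 40 of the 389 partly coding pairs (10.3%) and in 378 of the coding pairs (3.44%).

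The annotation mostly named the site that these cells used. Among pairs with a mean PSI over 90, only the upstream site was joined to the donor in GENCODE 29 in 91.1%. Under 10 it was only the downstream site in 87.9%. Where both sites were used, both were annotated in 355 of 570 (62.3%), only the upstream site in 152 and only the downstream site in 42, while 21 pairs had neither junction in the annotation. The downstream site could be read from annotated transcripts in 13869 pairs and was AG in 13853.

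The letter before the AG differed with use. CAG is the most common 3' splice site trinucleotide in human introns, followed by TAG, while AAG is poor and GAG is rare. At the downstream site it was CAG in 75.3%, TAG in 15.8%, AAG in 8% and GAG in 0.909% of the 550 pairs that used both sites and had a readable AG there. In the 10673 such pairs with a mean PSI over 90, where that site is little used, the shares were 61.0%, 15.6%, 20.3% and 3.14%. Restricted to the 1263 of these with enough reads of both forms to be tested, they were 71.7%, 15.1%, 12.0% and 1.19%. Pyrimidines in the 20 bases before the downstream site were counted only in pairs at least 20 nt apart with all 20 bases readable. Their median share was 65% in the 370 of these that used both sites and 60% in the 4675 with a mean PSI over 90. Only 31.2% of the pairs with a mean PSI under 10 could be read, too few for this comparison.

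On either side of the 3 nt limit the use of the sites differed. The 1475 pairs with AGs exactly 3 nt apart, outside the set, had a median mean PSI of 97.9 and used both sites in 27.0%. The 1525 pairs at 4 nt had a median of 99.7 and used both in 3.34%, and the 877 pairs at 5 nt in 3.88%. At the read limit, 539 pairs with 18 to under 20 reads in their lowest library used both sites in 6.68%, and 529 with 20 to under 22 reads in 5.48%. UBR4, a large ubiquitin ligase, held the most pairs in 1 gene, 22. Of the 3 pairs with most reads, 2 lay in RBM25 itself, 23 and 20 nt apart within an annotated intron. Both had a PSI of 0 in nearly every library, while their reads ranged from 277 to 128462 and from 162 to 123173 and came nearly all from dCasRx-RBM25 libraries, which carry the transfected RBM25 sequence. The third, in the ribosomal protein gene RPL18 (41 nt apart), had 9459 to 21516 reads.

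A pair was tested between groups where its rarer form had 24 reads or more, summed over the 12 libraries, as it did in 2495 pairs of 2004 genes and not in 17161. All 570 pairs that used both sites were among them. Replicates of a group differed in these 570 by a median of 4.18 to 5.00 points, and the range over all 12 libraries had a median of 17.7 points. A quasi-binomial model of the reads was fitted to all 100386 tested events of the table, and a pair was called where the Benjamini-Hochberg adjusted p was under 0.05 and the mean PSI differed by at least 10 points. In simulated data at the depth and spread of dCasRx-RBM25 against RBFOX1N-dCasRx-C, 78.5% of 200 events changed by 20 points were called.

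At distances of 13 to 200 nt the mean use of the upstream site was slightly lower with both fusions than with dCasRx, and over 200 nt it was lowest with RBFOX1N-dCasRx-C. The mean PSI of the 837 pairs at 51 to 200 nt was 63.9 to 64.4 in the 6 dCasRx-RBM25 libraries, 63.9 to 64.3 in the 4 RBFOX1N-dCasRx-C libraries, and 65.7 in each dCasRx library. At 13 to 50 nt (961 pairs) it was 49.3 to 49.4 in dCasRx-RBM25, 49.2 to 49.4 in RBFOX1N-dCasRx-C, and 49.8 and 50.0 in dCasRx. In both of these classes the libraries with a fusion all lay below dCasRx, while the fusions overlapped each other. At 4 to 12 nt (610 pairs) the mean PSI was 84.3 to 84.7 in dCasRx-RBM25, 84.7 to 85.1 in RBFOX1N-dCasRx-C and 84.8 in each dCasRx library, so that dCasRx lay among the others. Over 200 nt (87 pairs) it was 54.4 to 55.3 in dCasRx-RBM25, 52.1 to 53.3 in RBFOX1N-dCasRx-C, and 55.9 and 54.4 in dCasRx, so that RBFOX1N-dCasRx-C lay lowest.

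**Figure D2:**
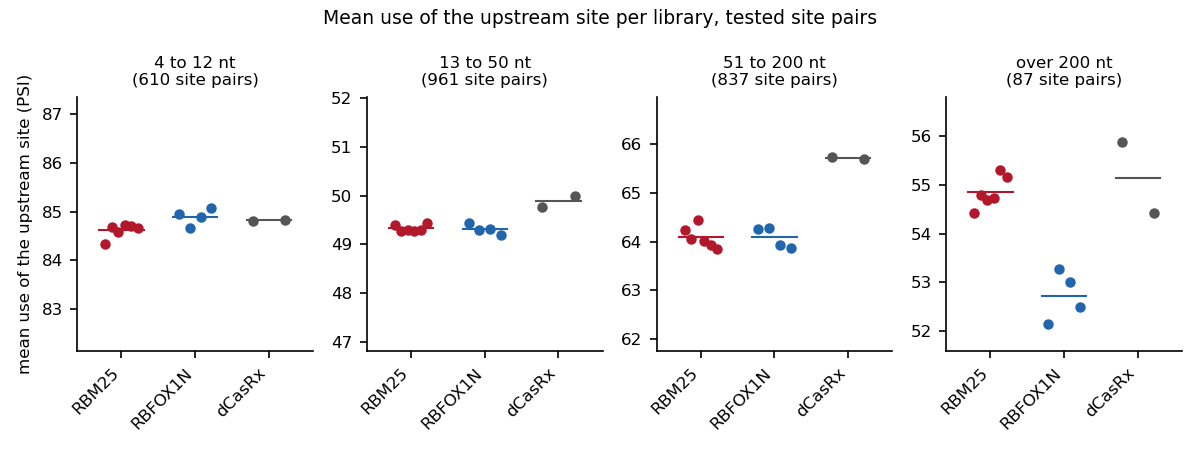
Mean PSI of the upstream site (y axis, percent, each panel spanning the same number of points around its own level) in each library, by effector (x axis), for the tested site pairs of 4 distance classes; points are libraries and lines are group means. At 51 to 200 nt both dCasRx libraries sit at 65.7, above all 10 libraries with a fusion, at 13 to 50 nt they also lie above all 10, and over 200 nt RBFOX1N-dCasRx-C lies lowest.

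In pairwise terms, PSI was lower with dCasRx-RBM25 than with dCasRx in 70.1% of the pairs at 51 to 200 nt (median difference -0.87 points), in 59.8% over 200 nt (-0.36), in 56.6% at 13 to 50 nt and in 52.6% at 4 to 12 nt. With RBFOX1N-dCasRx-C it was lower than with dCasRx in 72.8% at 51 to 200 nt (median -0.995), in 66.7% over 200 nt (-1.29), in 56.6% at 13 to 50 nt and in 50.5% at 4 to 12 nt. These comparisons share the 2 dCasRx libraries. Set against each dCasRx library alone, the share at 51 to 200 nt was 68.5% and 68.1% for dCasRx-RBM25, and 69.9% and 69.2% for RBFOX1N-dCasRx-C. Over all tested events of the table the share with a higher value than dCasRx was 50.1% for dCasRx-RBM25 and 46.3% for RBFOX1N-dCasRx-C. These shares count both entries of two-site events, which run in opposite directions, and mix classes of event. Among cassette exons they were 44.8% and 47.6%, and among retained introns 59.5% and 41.0%. In the 2495 tested site pairs of all distances the fusions gave 39.7% and 39.1%. Among 2580 alternative 5' splice sites more than 3 nt apart they gave 35.6% and 35.3%. The alternative 5' sites thus tilted likewise and somewhat further. The dCasRx libraries also had the fewest reads per pair, and the part of depth in this shift was not tested.

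dCasRx-RBM25 differed from RBFOX1N-dCasRx-C at 25 site pairs, 13 with more and 12 with less use of the upstream site. That is 1.00% of the tested pairs, against 2.79% of all tested events (1.26% higher and 1.53% lower), so the share was below that of the whole table. With the nontargeting guide only, 11 pairs were called, against 1.67% of all tested events. In 21 of the 25 the dCasRx-RBM25 and RBFOX1N-dCasRx-C libraries did not overlap, against 5.85% of all tested pairs. The 10 pairs with the largest differences are described in turn. Of these 10 only the DCLRE1A pair had at least 50 reads in every library. In what follows the values of the 6 dCasRx-RBM25 libraries are given as the lowest, median and highest, and those of the other groups library by library, nontargeting guide first.

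The largest difference was in WDR33, the subunit of the cleavage and polyadenylation machinery that binds the AAUAAA signal. Its sites are 238 nt apart within an annotated intron, with exon starts at chr2:127789589 and chr2:127789351 on the minus strand. The upstream site took 30.6, 41.4 and 50.8% of the reads in dCasRx-RBM25, 9.42, 9.29, 6.05 and 16.1% in RBFOX1N-dCasRx-C, and 25.5 and 13.9% in dCasRx. All 6 dCasRx-RBM25 libraries lay above all other libraries, and the difference from RBFOX1N-dCasRx-C was 30.9 points (SE 4.04, adjusted p = 8.12e-05). The event had 25 to 73 reads per library.

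NACA, which encodes the alpha subunit of the nascent polypeptide-associated complex at the ribosome, moved the other way. Its AGs are 12 nt apart, as printed above, so that a switch adds or removes 4 amino acids without a frame shift. PSI was 13.2, 23.8 and 40.4 in dCasRx-RBM25, 60.8, 48.8, 49.7 and 45.6 in RBFOX1N-dCasRx-C, and 46.7 and 40.6 in dCasRx. Every dCasRx-RBM25 library lay below every RBFOX1N-dCasRx-C library, a difference of -26.6 points (SE 5.08, adjusted p = 0.00184). NACA has near-identical copies in the genome, so its reads are uncertain. VEZF1, a zinc finger transcription factor, also kept its frame, with sites 18 nt apart. Its PSI was 58.3, 71.7 and 83.1 in dCasRx-RBM25, 91.9, 88.1, 95.1 and 92.4 in RBFOX1N-dCasRx-C, and 88.4 and 82.7 in dCasRx. The dCasRx-RBM25 libraries were again all below those with RBFOX1N-dCasRx-C, by -21.3 points (SE 3.55, adjusted p = 0.00199).

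The DNA repair genes DCLRE1A and RECQL4 used the upstream site less in RBFOX1N-dCasRx-C than in dCasRx-RBM25. DCLRE1A encodes a nuclease of interstrand crosslink repair, and its sites lie 454 nt apart within its coding sequence. PSI was 93.4, 95.1 and 97.9 in dCasRx-RBM25, 78.3, 72.1, 79.2 and 78.9 in RBFOX1N-dCasRx-C, and 92 and 94.6 in dCasRx. The 4 RBFOX1N-dCasRx-C libraries lay below all 8 others, by 18.2 points (SE 1.95, adjusted p = 3.15e-06) in the direction dCasRx-RBM25 minus RBFOX1N-dCasRx-C. It had the smallest adjusted p of the 25. Its downstream AG is preceded by an A, as the printed sequence shows. RECQL4, a RecQ family DNA helicase, has its sites 248 nt apart in coding sequence. Its PSI was 29.2, 42.2 and 58.9 in dCasRx-RBM25, 21.1, 21.3, 19 and 19 in RBFOX1N-dCasRx-C, and 35.8 and 60.7 in dCasRx. The RBFOX1N-dCasRx-C libraries lay within 3 points of each other and below all others, while the 6 dCasRx-RBM25 libraries spread widely; the difference was 24.5 points (SE 5.76, adjusted p = 0.0111).

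Of the other 5 pairs, the one in EP400 used its upstream site less in dCasRx-RBM25. EP400, the ATPase of a chromatin remodelling complex, had a PSI of 67.1, 77.1 and 85.2 in dCasRx-RBM25, 95.2, 94.1, 85.1 and 94.8 in RBFOX1N-dCasRx-C, and 90.5 and 93 in dCasRx, at sites 109 nt apart. The lowest RBFOX1N-dCasRx-C library fell just inside the dCasRx-RBM25 range, and the difference was -16 points (SE 3.42, adjusted p = 0.00722). ZBTB8A, a BTB and zinc finger protein (181 nt), had a PSI of 53.1, 64 and 70.1 in dCasRx-RBM25, 48.8, 45.4, 40.3 and 49.4 in RBFOX1N-dCasRx-C, and 74.5 and 68.8 in dCasRx. RBFOX1N-dCasRx-C lay below all other libraries, and dCasRx-RBM25 exceeded it by 16.6 points (SE 4.03, adjusted p = 0.00772). PSRC1, which acts at the mitotic spindle (53 nt), had a PSI of 35.3, 46.1 and 54.8 in dCasRx-RBM25, 34.5, 22.6, 21.2 and 32.3 in RBFOX1N-dCasRx-C, and 48.1 and 40 in dCasRx, a difference of 18.7 points (SE 4.74, adjusted p = 0.0116) with no overlap. NPAS1, a neuronal basic helix-loop-helix transcription factor (47 nt), had a PSI of 61.1, 63.5 and 73.5 in dCasRx-RBM25, 50, 51.5, 55.3 and 43.9 in RBFOX1N-dCasRx-C, and 58.8 and 61.9 in dCasRx, a difference of 14.6 points (SE 3.86, adjusted p = 0.0196). In the deubiquitinase gene MINDY1 (262 nt, 5' untranslated) the difference of -14.7 points (SE 4.98, adjusted p = 0.0451) was past the threshold in only 2 of the 10 fits that left out a library. The calls of RECQL4, PSRC1, ZBTB8A, EP400, NPAS1 and MINDY1 were lost with the nontargeting guide only, with no change of direction. There the ZBTB8A difference was 9.82 points (adjusted p = 0.434).

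**Figure D3:**
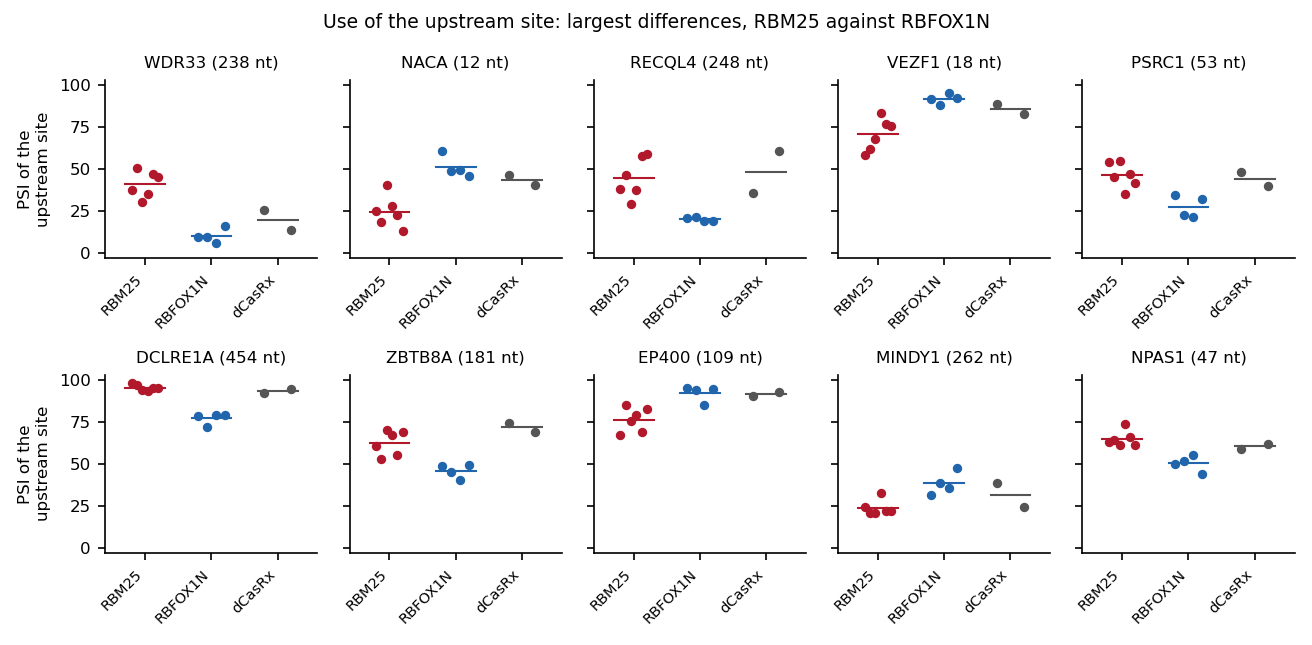
PSI of the upstream site (y axis, percent) in each library by effector (x axis) for the 10 called site pairs with the largest difference between dCasRx-RBM25 and RBFOX1N-dCasRx-C; points are libraries, lines are group means and the distance between the sites is in each title. WDR33 and RECQL4 show the low and narrow RBFOX1N-dCasRx-C values, NACA and VEZF1 the low dCasRx-RBM25 values.

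The other 15 of the 25 are named here after their values were seen. Of these, RBM4B, itself a splicing regulator, used an upstream site 82 nt away in 11.3, 16.1 and 21.8% of reads in dCasRx-RBM25, in 4.79, 4.75, 4.86 and 4.15% in RBFOX1N-dCasRx-C, and in 7.98 and 13.6% in dCasRx. The 4 RBFOX1N-dCasRx-C values lay within 1 point of each other and below all the rest, and the difference was 11.6 points (SE 1.67, adjusted p = 0.000134). EPHA2, an ephrin receptor tyrosine kinase, gave 17.5, 20.2 and 22.5% in dCasRx-RBM25, 8.8, 8.9, 9.52 and 10.4% in RBFOX1N-dCasRx-C, and 4.88 and 16.3% in dCasRx, a difference of 10.4 points (SE 1.87, adjusted p = 0.0011). RHBDD3, a rhomboid family protein, held the only called pair at 4 nt and gave 25.2, 29.1 and 31.1% in dCasRx-RBM25, 40, 42.4, 39.1 and 35.5% in RBFOX1N-dCasRx-C, and 32.9 and 28.7% in dCasRx, a difference of -11 points (SE 1.87, adjusted p = 0.000691). In PLA2G6, AP1G2, ACAD11, PROSER3 and UHMK1 the upstream site was used more in dCasRx-RBM25 than in RBFOX1N-dCasRx-C, with differences of 12.1, 12.6, 12.6, 11.3 and 11.4 points. In EPB41L3, MYL6, TMTC3, WDR81, TANC1, PAPD5 and FAM58A it was used less, with differences of -11.5, -13.7, -11, -12.6, -10.6, -10.6 and -11.2 points. MYL6, a myosin light chain gene, also has near-identical copies.

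dCasRx-RBM25 differed from dCasRx at 17 site pairs, 16 with less and 1 with more use of the upstream site. That is 0.681% of the tested pairs, against 0.993% of all tested events (0.574% lower and 0.419% higher). In all 17 the dCasRx-RBM25 and dCasRx libraries did not overlap, as in 15.8% of all tested pairs. Of the 17, 14 had sites 51 to 200 nt apart, the distance class of 33.5% of the tested pairs. Without the second dCasRx library 5 were called and without the first 11, so that the number rests on these 2 libraries. With the nontargeting guide only, 7 pairs were called, against 0.731% of all tested events.

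FAM58A (CCNQ), the cyclin that activates CDK10, held its call in all 8 fits that left out a library and lost it with limma on logit values (adjusted p = 0.084). Its sites are 60 nt apart, in frame, with exon starts at chrX:153588454 and chrX:153588394 on the minus strand. PSI was 35.8, 41.2 and 43.5 in dCasRx-RBM25, 56.2, 50.1, 49.5 and 51.6 in RBFOX1N-dCasRx-C, and 55 and 56.4 in dCasRx. dCasRx-RBM25 lay below all other libraries, by -15 points (SE 2.44, adjusted p = 0.00222) against dCasRx and by -11.2 points (SE 1.7, adjusted p = 0.000253) against RBFOX1N-dCasRx-C. The event had 334 to 682 reads per library.

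USP1, the deubiquitinase of FANCD2 and PCNA, had a narrow spread between libraries, and is named after its values were seen. Its upstream site, 190 nt away, took 86.5, 87.8 and 89% of 511 to 913 reads in dCasRx-RBM25, 89.6, 87.3, 90.5 and 90% in RBFOX1N-dCasRx-C, and 97.7 and 98.5% in dCasRx. Both fusions lay below dCasRx with no overlap, dCasRx-RBM25 by -10.4 points (SE 0.666, adjusted p = 5.13e-06) and RBFOX1N-dCasRx-C by -8.78 points (SE 0.78, adjusted p = 2.02e-05), the second of which stays under the 10 point limit. Against each other the fusions gave -1.58 points (SE 0.827, adjusted p = 0.243).

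The following pairs are also among the 10 with the largest differences from dCasRx. PAPD5 (TENT4B), a noncanonical poly(A) polymerase that marks RNAs for the exosome, had a PSI of 41.5, 44.9 and 49.4 in dCasRx-RBM25, 57.7, 49.5, 62.5 and 53.3 in RBFOX1N-dCasRx-C, and 64.7 and 65.5 in dCasRx, at sites 141 nt apart. The dCasRx-RBM25 libraries lay lowest, by -20 points (SE 4.74, adjusted p = 0.0292) against dCasRx. CEP170, a protein of the centrosome's appendages (108 nt), had a PSI of 53.1, 55.2 and 60.7 in dCasRx-RBM25, 60.3, 53.2, 66.5 and 56.8 in RBFOX1N-dCasRx-C, and 77.2 and 67.7 in dCasRx, a difference of -16 points (SE 3.48, adjusted p = 0.0152). WDR60 (DYNC2I1), an intermediate chain of the ciliary dynein (77 nt), had a PSI of 71, 78.3 and 80.2 in dCasRx-RBM25, 80.1, 91.1, 88.4 and 86.9 in RBFOX1N-dCasRx-C, and 91.7 and 97.3 in dCasRx, a difference of -17.7 points (SE 3.02, adjusted p = 0.0113). In both genes the fusions sat below dCasRx, and only the dCasRx-RBM25 difference passed the threshold; RBFOX1N-dCasRx-C minus dCasRx was -13.2 points (SE 3.83, adjusted p = 0.0533) in CEP170 and -7.84 points (SE 3.08, adjusted p = 0.22) in WDR60. SETD4, a SET-domain methyltransferase (49 nt), had the largest difference and few reads, 21 to 44 per library. Its PSI was 0, 3.65 and 6 in dCasRx-RBM25, 7.34, 7.53, 10.8 and 9.13 in RBFOX1N-dCasRx-C, and 34.4 and 16.1 in dCasRx, a difference of -22.2 points (SE 5.82, adjusted p = 0.0125) between dCasRx-RBM25 and dCasRx.

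The rest of the 10 were TANC1, a synaptic scaffold (-14.1 points (SE 2.6, adjusted p = 0.0358)), NFKBIB, an inhibitor of NF-kappa-B (-12.1 points (SE 2.68, adjusted p = 0.0163)), CDC27, a subunit of the anaphase-promoting complex (-19 points (SE 6.71, adjusted p = 0.0486)), ATP2B4, a plasma membrane calcium pump (-13.1 points (SE 2.8, adjusted p = 0.0494)), and CNOT8. CDC27 has near-identical copies, and its call, like that of ATP2B4, was lost in 7 of 8 fits without a library. The TANC1 call was lost in 5 of 8, the NFKBIB and PAPD5 calls without the first and also without the second dCasRx library, the CEP170 call without the first and the WDR60 call without the second. CNOT8, a deadenylase of the CCR4-NOT complex with sites 5 nt apart, was the only call with a higher PSI. It rests on 1 library: PSI was 99.7, 100 and 100 in dCasRx-RBM25, 99.5, 100, 100 and 100 in RBFOX1N-dCasRx-C, and 99.4 and 75 in dCasRx. Without the second dCasRx library too few reads of the less used form remained to test it. Named after their values were seen, ASCC3, TJP1, SH2B1, MYCBP2, ZDHHC6 and MECR had differences of -10.2, -10.7, -10.7, -11.9, -11.1 and -11.4 points. In TJP1, the tight junction protein ZO-1, PSI was 81.7, 85.3 and 87.8 in dCasRx-RBM25, 96.2, 92.5, 91.2 and 92.1 in RBFOX1N-dCasRx-C, and 97 and 94.4 in dCasRx, with every dCasRx-RBM25 library below the rest (adjusted p = 0.0194).

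RBFOX1N-dCasRx-C differed from dCasRx at 11 site pairs, 10 with less and 1 with more use of the upstream site. That is 0.441% of the tested pairs, against 1.53% of all tested events (0.765% lower and 0.768% higher). The RBFOX1N-dCasRx-C and dCasRx libraries did not overlap in any of the 11, as in 21.6% of all tested pairs. Without the first dCasRx library 3 were called and without the second 0, so that here too the number rests on these 2 libraries. With the nontargeting guide only, 9 pairs were called, against 1.14% of all tested events. Among the pairs named below, JMY, RBBP4, ASCC3 and OTUD7B lost their call there.

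UHMK1, the kinase that phosphorylates the branch point binding protein SF1, used its upstream site, 109 nt away, in 86.7, 85.3, 78.2 and 80.3% of reads in RBFOX1N-dCasRx-C, 90.2, 94.5 and 96.9% in dCasRx-RBM25 (lowest, median, highest), and 97.2 and 97.5% in dCasRx. RBFOX1N-dCasRx-C lay below all others, by -14.7 points (SE 2.3, adjusted p = 0.00531) against dCasRx. DCLRE1A and ZBTB8A, described above, showed the same order, at -16.2 points (SE 2.42, adjusted p = 0.00204) and -25.7 points (SE 5.6, adjusted p = 0.0157) against dCasRx. OTUD7B, a deubiquitinase also known as Cezanne (41 nt, 5' untranslated), had a PSI of 89.1, 91.9, 88.7 and 84.6 in RBFOX1N-dCasRx-C, 96.4, 98.9 and 100 in dCasRx-RBM25 (lowest, median, highest), and 100 and 100 in dCasRx. The downstream site was thus used most in RBFOX1N-dCasRx-C, a difference of -11.4 points (SE 1.67, adjusted p = 0.00527) from dCasRx.

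KIAA0907 (KHDC4), a KH-domain RNA-binding protein (101 nt), had a PSI of 61.5, 56.2, 59.7 and 60.3 in RBFOX1N-dCasRx-C, 59.8, 62.9 and 67.9 in dCasRx-RBM25 (lowest, median, highest), and 72 and 71 in dCasRx, a difference of -12.1 points (SE 2.55, adjusted p = 0.0125) from dCasRx. CSNK1E, casein kinase 1 epsilon (469 nt), had a PSI of 12.1, 14.9, 10.8 and 12.9 in RBFOX1N-dCasRx-C, 14, 16.8 and 21.9 in dCasRx-RBM25 (lowest, median, highest), and 26 and 24 in dCasRx, a difference of -12.3 points (SE 2.7, adjusted p = 0.00671). Both fusions sat below dCasRx in these genes, and the dCasRx-RBM25 differences, -8.25 points (SE 2.36, adjusted p = 0.0779) and -7.65 points (SE 2.68, adjusted p = 0.0961), were not past the threshold. ASCC3, a helicase of alkylation repair and ribosome rescue (115 nt), was called with both fusions. Its PSI was 86.4, 88.6, 82.4 and 77.1 in RBFOX1N-dCasRx-C, 82.1, 86.9 and 89 in dCasRx-RBM25 (lowest, median, highest), and 94.1 and 98.3 in dCasRx, which put RBFOX1N-dCasRx-C -12.5 points (SE 2.76, adjusted p = 0.017) and dCasRx-RBM25 -10.2 points (SE 2.23, adjusted p = 0.0288) from dCasRx. JMY, an actin nucleator and p53 cofactor, differed by -17 points (SE 2.96, adjusted p = 0.0394), and RBBP4, a histone chaperone, by -16.9 points (SE 4.36, adjusted p = 0.0459). The JMY call was lost in 5 of 6 fits without a library and the RBBP4 call in all 6. CNOT8 again differed only through the second dCasRx library, and CBY1, named after its values were seen, by -11.1 points (SE 2.74, adjusted p = 0.0191).

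**Figure D4:**
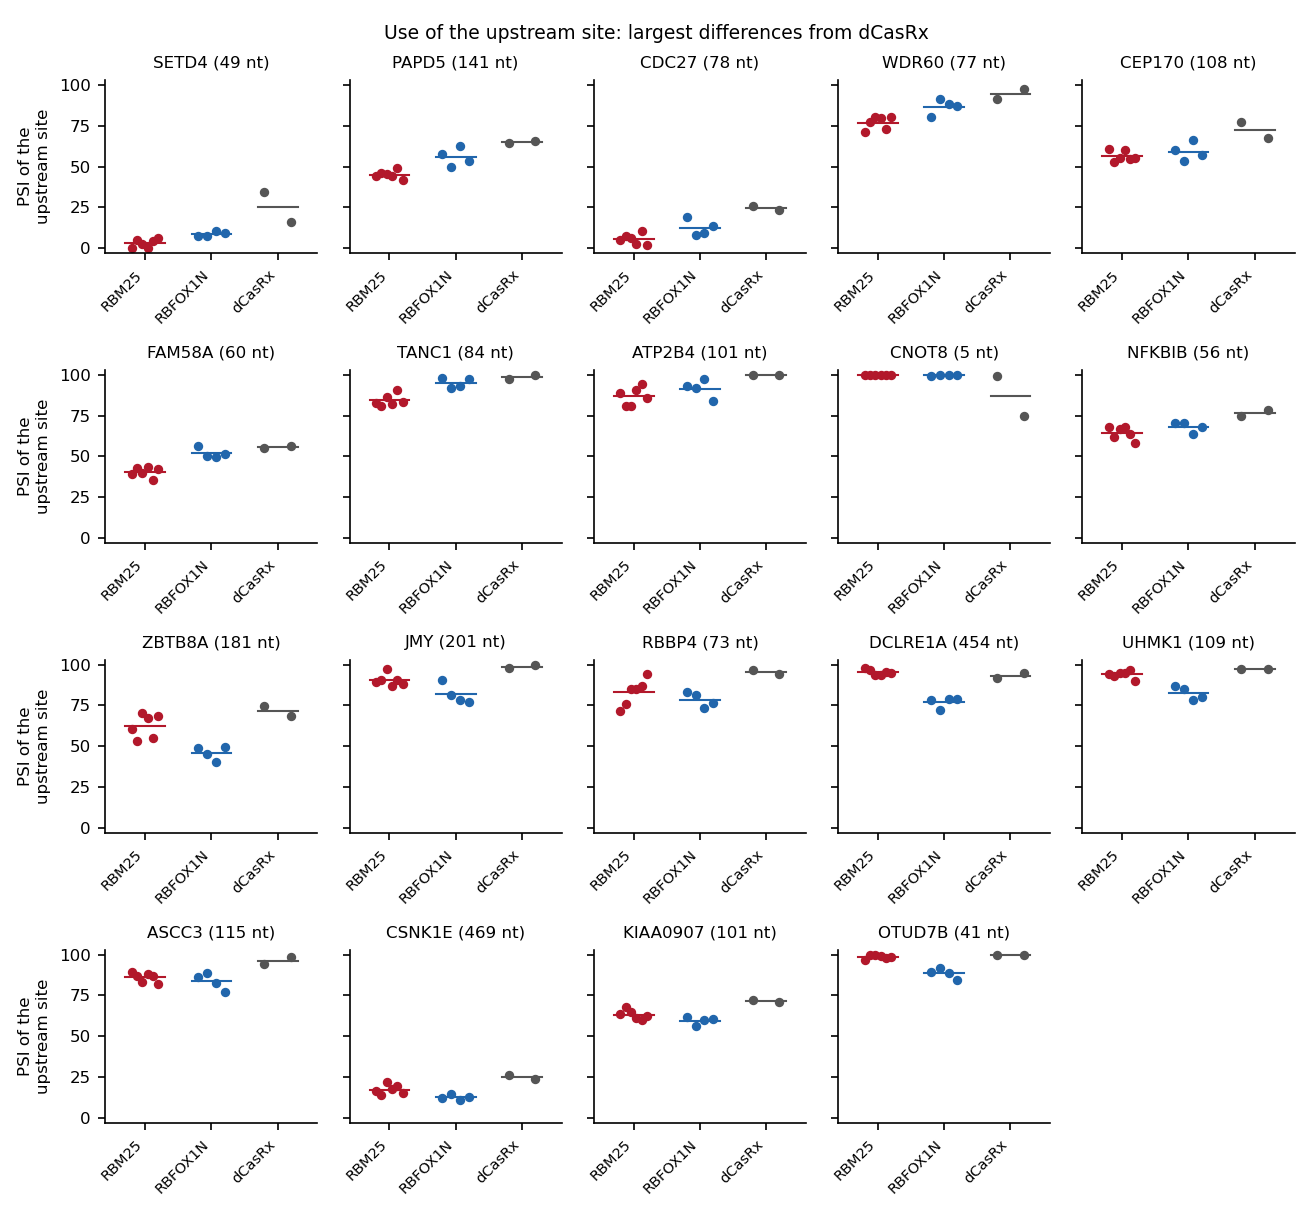
PSI of the upstream site (y axis, percent) in each library by effector (x axis) for the called site pairs with the largest differences from dCasRx, up to 10 for each fusion; points are libraries and lines are group means. In every panel but CNOT8 both dCasRx points lie above the points of the fusion that was called, and in CNOT8 1 of the 2 dCasRx libraries lies far below the other 11.

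The 45 pairs called in at least 1 of the 3 comparisons lay in 45 genes. Of them 38 used both sites, as did 22.8% of all tested pairs, and 27 were 51 to 200 nt apart, as were 33.5% of all tested pairs. A call needs a difference of at least 10 points, and pairs that hardly use 1 of the sites can rarely reach it. The share that used both sites thus follows in part from the limit itself. A multiple of 3 was the distance of 12, against 32.5% of the tested pairs, and the median distance was 101 nt, against 34 nt. Only the upstream site was annotated in 19 of the 45 (42.2%) and both in 17. Their downstream site was CAG in 78.6%, TAG in 19% and AAG in 2.38% of the 42 that could be read. GCATG, the letters that RBFOX proteins bind as RNA, occurred on the RNA's strand between the sites in 3 of the 16 readable pairs at 51 to 200 nt that were called in a comparison with RBFOX1N-dCasRx-C (ASCC3, ZBTB8A and PLA2G6), in 4 of the 23 called in one with dCasRx-RBM25 (the same 3 and NFKBIB) and in 47 of the 754 readable tested pairs of that class (6.23%). CGGGCA, a reported RBM25 site, occurred in 0 of these 23 and in 8 of the 754 (1.06%). Matches were counted on 1 strand only, and the motifs can overlap by 3 letters. Past the adjusted p alone, with no limit on the size, were 46 pairs for dCasRx-RBM25 against dCasRx (3 higher and 43 lower, against 3.65% of all tested events, 1.5% higher and 2.16% lower), 34 for RBFOX1N-dCasRx-C against dCasRx (2 higher and 32 lower, against 4.16%, 2.18% and 1.98%) and 137 for dCasRx-RBM25 against RBFOX1N-dCasRx-C (72 higher and 65 lower, against 13.7%, 6.65% and 7.03%). Of these 137, 60 differed by less than 5 points.

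The level of the genes with a called pair was tested as well, and whether the shares that passed differ from those of all genes was not tested. By edgeR's quasi-likelihood test the gene itself changed in 3 of the 17 genes called in dCasRx-RBM25 against dCasRx (15.5% of all genes did), in 3 of the 11 for RBFOX1N-dCasRx-C against dCasRx (20.1%) and in 11 of the 25 for dCasRx-RBM25 against RBFOX1N-dCasRx-C (39.6%). The 3 in the first comparison were ASCC3 (log2 fold change -0.46, adjusted p = 0.00527), TANC1 (0.33, adjusted p = 0.00798) and PAPD5 (0.26, adjusted p = 0.0417). The 3 in the second were JMY (0.65, adjusted p = 0.000168), CSNK1E (0.33, adjusted p = 0.0204) and OTUD7B (0.21, adjusted p = 0.0485). An intron ending at 1 of the sites was tested for retention beside 7, 5 and 10 of the called pairs in these comparisons and passed an adjusted p of 0.05 beside 2, 2 and 3, where 1.73%, 3.86% and 15.3% of all 27887 tested introns passed it. For an intron ending at the downstream site this is not a separate readout. When the upstream site is used, reads that run from the stretch over the downstream exon start can count as retention.

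The intron before the upstream site of OTUD7B was retained in 17.3 ± 2.89% of its reads in RBFOX1N-dCasRx-C (SD, 4 libraries), 1.37 ± 0.360% in dCasRx-RBM25 (6 libraries) and 0.555 ± 0.785% in dCasRx (2 libraries), so that retention and use of the downstream site were both higher in RBFOX1N-dCasRx-C (16.8 points above dCasRx, adjusted p = 0.000314). In RBM4B the intron before the downstream site was retained in 20.8 ± 3.55% in dCasRx-RBM25, 6.94 ± 2.20% in RBFOX1N-dCasRx-C and 16.9 ± 1.98% in dCasRx, and dCasRx-RBM25 exceeded RBFOX1N-dCasRx-C by 13.9 points (adjusted p = 7.7e-05). In FAM58A the intron before the downstream site was retained in 30.3 ± 3.38% in dCasRx-RBM25, 37.9 ± 3.74% in RBFOX1N-dCasRx-C and 41.9 ± 0.431% in dCasRx, and dCasRx-RBM25 minus dCasRx was -11.6 points (adjusted p = 0.0221). In RBM4B and FAM58A retention and PSI moved in the same direction. Both can draw on the same reads there, and how far they do was not tested.

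No site pair was called for a guide. The MAPT guide against the nontargeting guide gave 0 called pairs with dCasRx-RBM25 (0.000996% of all tested events were called) and 0 with RBFOX1N-dCasRx-C (0.0%), and the CD46 guide gave 0 with dCasRx-RBM25 (0.0%), by the quasi-binomial model and by limma on logit values. At an unadjusted p under 0.05 stood 106, 131 and 109 of the 2495 pairs, against 5.81%, 5.93% and 5.9% of all tested events. The difference between the effectors in the effect of the MAPT guide was past the adjusted threshold for 0 pairs and at an unadjusted p under 0.05 for 113 (5.63% of all tested events). In the targeted genes themselves, MAPT held no pair of this kind and CD46 held 1, with sites 264 nt apart (chr1:207760985-207761446), whose upstream site had 0% of 122 to 194 reads in every library. A count of 0 at these depths allows a PSI of up to 1.55 to 2.46 per library, counting error only.

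Splicing factors themselves contain such pairs. Among 106 genes of splicing factors and regulators, 31 held 42 tested pairs, and 0 of these were called in any of the 3 effector comparisons. At an unadjusted p under 0.05 stood 9 in dCasRx-RBM25 against dCasRx, 3 in RBFOX1N-dCasRx-C against dCasRx and 8 in dCasRx-RBM25 against RBFOX1N-dCasRx-C, where 17.5%, 17.4% and 26.9% of all tested events did. PHF5A, an SF3B subunit that contacts the branch point, had the largest difference, at sites 89 nt apart. Its PSI was 70.7, 81.1 and 88 in dCasRx-RBM25, 93.7, 84.9, 83.4 and 88.9 in RBFOX1N-dCasRx-C, and 94.5 and 100 in dCasRx, which gave -17.7 points (SE 3.99, adjusted p = 0.0702) for dCasRx-RBM25 against dCasRx, not past the threshold. PRPF8, the core of the spliceosome's active site, had a PSI of 93.5, 95.2 and 96.9 in dCasRx-RBM25, 99.5, 98.4, 99 and 98.3 in RBFOX1N-dCasRx-C, and 99 and 98.6 in dCasRx at sites 91 nt apart. dCasRx-RBM25 lay below both, by -3.63 points (SE 0.642, adjusted p = 0.0182) against dCasRx and -3.61 points (SE 0.535, adjusted p = 0.00038) against RBFOX1N-dCasRx-C, past the adjusted p but under 10 points.

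In 4 other pairs of these genes, named after their values were seen, both sites were used in every group. HNRNPH1, an hnRNP that binds G-runs (21 nt), averaged 35 ± 7.03 in dCasRx-RBM25 libraries, 41.3 ± 6.97 in RBFOX1N-dCasRx-C libraries and 42.2 ± 3.8 in dCasRx libraries (mean PSI ± SD over 6, 4 and 2 libraries). RBFOX2, an RBFOX family member (12 nt), averaged 42.1 ± 5.9 in dCasRx-RBM25 libraries, 41.9 ± 1.57 in RBFOX1N-dCasRx-C libraries and 38.7 ± 0.0194 in dCasRx libraries. SNRNP70, the U1 snRNP protein (27 nt), averaged 76.5 ± 1.26 in dCasRx-RBM25 libraries, 77.1 ± 0.516 in RBFOX1N-dCasRx-C libraries and 75.4 ± 1.27 in dCasRx libraries, and SRSF5, an SR protein (4 nt), averaged 71.9 ± 2.67 in dCasRx-RBM25 libraries, 72.6 ± 0.865 in RBFOX1N-dCasRx-C libraries and 74.6 ± 1.51 in dCasRx libraries. None of these 4 differed between effectors past the threshold.

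The genes of 43 factors, of 3' splice site recognition and of the second step, were tested for their level. In the 3 comparisons 18.6%, 27.9% and 48.8% of them passed, beside 15.5%, 20.1% and 39.6% of all genes. Whether these shares differ was not tested. Of 28 factors of 3' splice site recognition and 15 of the second step, all tested by edgeR's quasi-likelihood test over 20593 genes, 8 rose and 0 fell in dCasRx-RBM25 against dCasRx (7.31% of all genes rose and 8.18% fell). Of these 8, 3 were recognition factors and 5 were second-step factors. In RBFOX1N-dCasRx-C against dCasRx 9 rose and 3 fell (11.6% and 8.47%), and in dCasRx-RBM25 against RBFOX1N-dCasRx-C 14 rose and 7 fell (19.2% and 20.4%). The second-step factors had a median log2 fold change of 0.19 in dCasRx-RBM25 against dCasRx, and the recognition factors 0.10, against 0.01 over all genes. Without the second dCasRx library 0 factors were called for dCasRx-RBM25 against dCasRx and 2 for RBFOX1N-dCasRx-C against dCasRx, and with relative log expression factors the counts in the 3 comparisons were 5, 10 and 21. No called factor changed sign under that scaling. With it, 6 second-step factors were called higher and 1 lower in dCasRx-RBM25 against RBFOX1N-dCasRx-C.

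DHX15, a helicase that removes stalled spliceosomes, was lowest in RBFOX1N-dCasRx-C. Its level was 185 to 229 CPM in dCasRx-RBM25, 150, 145, 147 and 143 CPM in RBFOX1N-dCasRx-C, and 192 and 195 CPM in dCasRx (log2 fold change -0.41, SE 0.08, adjusted p = 0.0047 for RBFOX1N-dCasRx-C over dCasRx; log2 fold change 0.50, SE 0.06, adjusted p = 4.28e-05 for dCasRx-RBM25 over RBFOX1N-dCasRx-C). DDX39B, the helicase UAP56 that helps U2 snRNP to bind, was highest there, at 158 to 196 CPM in dCasRx-RBM25, 178, 257, 274 and 230 CPM in RBFOX1N-dCasRx-C, and 160 and 157 CPM in dCasRx (log2 fold change -0.47, SE 0.10, adjusted p = 0.00162 for dCasRx-RBM25 over RBFOX1N-dCasRx-C). CHERP, a U2 snRNP partner, was higher with both fusions, at 261 to 353 CPM in dCasRx-RBM25, 327, 322, 364 and 357 CPM in RBFOX1N-dCasRx-C, and 259 and 214 CPM in dCasRx (log2 fold change 0.46, SE 0.10, adjusted p = 0.00769 for dCasRx-RBM25 over dCasRx). ZRSR2, which recognises the AG of minor introns, was lower in RBFOX1N-dCasRx-C than in dCasRx (log2 fold change -0.39, SE 0.09, adjusted p = 0.00819). In the second step, CACTIN (log2 fold change 0.40, SE 0.11, adjusted p = 0.0265) and the helicase DHX38 (log2 fold change 0.26, SE 0.06, adjusted p = 0.0161) were higher in dCasRx-RBM25 than in dCasRx, and PRKRIP1 (log2 fold change 0.32, SE 0.07, adjusted p = 0.00204) and NKAP (log2 fold change 0.24, SE 0.05, adjusted p = 0.00277) higher in dCasRx-RBM25 than in RBFOX1N-dCasRx-C. Whether these levels have a part in the use of the sites was not tested.

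**Figure D5:**
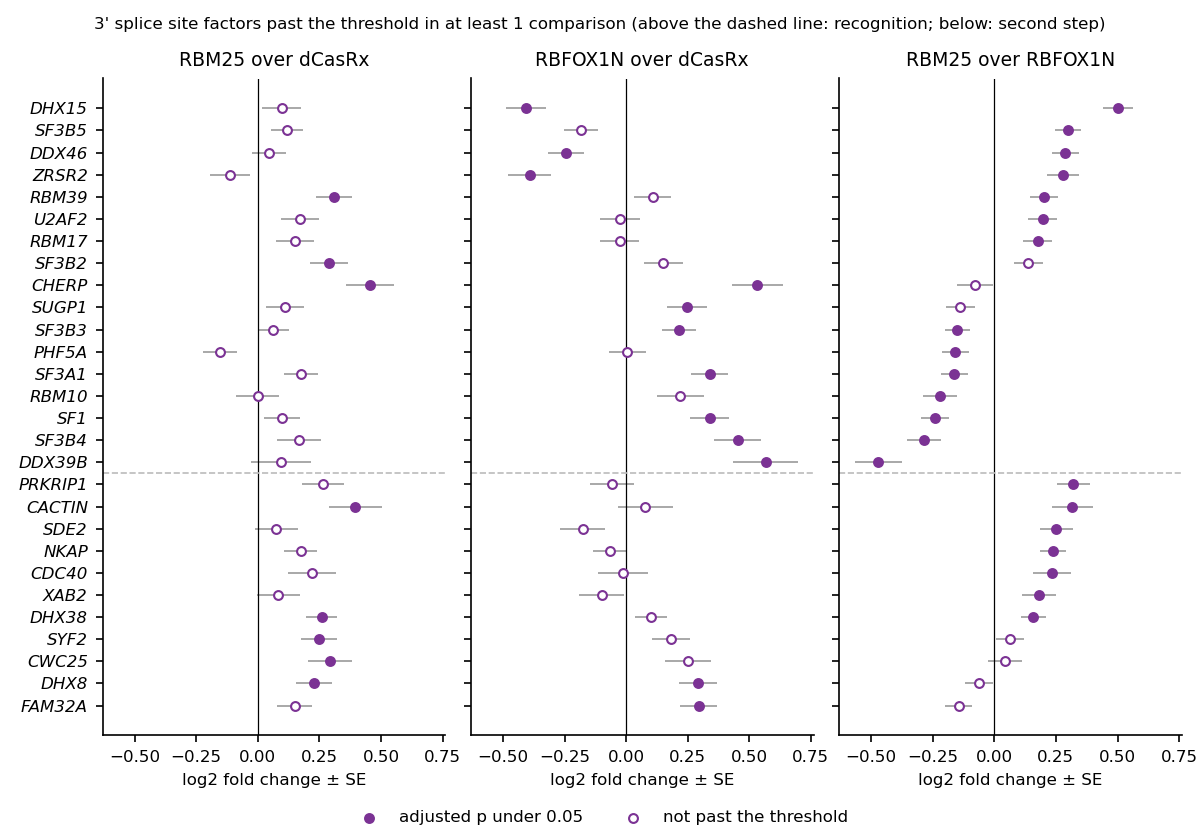
Log2 fold change with its standard error (x axis) of the 28 factors past an adjusted p of 0.05 in at least 1 of 3 comparisons (panels), 17 of 3' splice site recognition above the dashed line and 11 of the second step below it; filled points passed in that comparison. In dCasRx-RBM25 over dCasRx all filled points lie to the right of 0, and in dCasRx-RBM25 over RBFOX1N-dCasRx-C the recognition factors split into 7 higher and 7 lower while the 7 second-step factors are all higher.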

How the data were processed

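Poly(A) RNA of 12 HEK293T libraries was sequenced as 150 nt paired reads after a strand-marking library kit, per the labels' protocols. The authors deposited whole-number counts per gene and a vast-tools table with the PSI of each event as a percentage and, in a text field, its corrected reads for inclusion and exclusion. STAR 2.7.10, edgeR and hg38 are named without roles in the submitters' processing notes, while the version of vast-tools, the annotation behind the counts and their strand setting are not stated in these sources. The deposited percent values lay within 0.05 points of the share of inclusion reads in 99.9% of the 4699154 values compared. The text field of 1407 events could not be read and these were left out.

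Each two-site event has 1 entry used here, that of the longer exon, so that PSI is the use of the upstream site. The tested events of the whole table include both entries of such events, which run in opposite directions. Their shares higher and lower are therefore drawn towards each other. Site pairs, factor lists and tests were chosen with earlier results of these data known. Reads of all 100386 events with 20 or more reads in every library and 24 or more of the rarer form in all were fitted with a quasi-binomial logistic model (Python 3.11.15, numpy 2.4.6, scipy 1.17.1). It had 3 effector means and 9 residual degrees of freedom for effectors, and 6 group means for guides. Dispersions were moderated across events (prior degrees of freedom 8.31, prior dispersion 1.38) and floored at 1, and two-sided quasi-likelihood F tests were adjusted by Benjamini-Hochberg over all tested events. Differences are of mean PSI over libraries, with an SE from the pooled reads of each effector and the moderated dispersion of the model, which every effector shares. Named are the 10 called pairs with the largest difference in each effector comparison, all pairs in MAPT and CD46, the largest changes in splicing factor genes, and the 3 pairs with most reads. Any others are said to be named after their values were seen.

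Gene counts were tested with edgeR 4.0.16 (R 4.3.3) over 20593 genes with TMM scaling, filterByExpr and glmQLFTest, contrasting means over the guides of an effector. On simulated data that step recovered 98.0% of 200 changed genes for dCasRx-RBM25 against RBFOX1N-dCasRx-C, with 14 false calls among 20017 genes, and the quasi-binomial step made 1 false call among 20000 events. These events were drawn from the whole table and given 1 common spread, so the result does not describe the site pairs alone. Alternatives were limma 3.58.1 on logit values (0.5 reads added), DESeq2 1.42.0, other read limits, a limit of 5 points, the nontargeting guide alone, a replicate block and leaving out each library. Exon and transcript annotation and sequences were taken from GENCODE 29. No genome sequence was used, so an upstream site's intron was mostly unread. Replicates of a group differed by 6.49 to 36.3 chi-square units per gene, more than sampling noise gives, so each was counted as 1 sample.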

Additional observations from a re-analysis of the deposited data

Results flagged for a closer look

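Among the named pairs, 54 groups of 4 or 6 libraries with the same effector were examined for a library far from the rest, and 6 had one by Dixon's 95% limit, which chance alone passes in about 1 in 20 groups. In CNOT8 the first MAPT library with dCasRx-RBM25 had a PSI of 99.7 where the other 5 had 100, and the first nontargeting library with RBFOX1N-dCasRx-C had 99.5 where the other 3 had 100. With the others tied at 100, any lower value passes the limit. The CNOT8 flags thus do not measure a size, and the rate of 1 in 20 does not hold for them. In DCLRE1A the second nontargeting library with RBFOX1N-dCasRx-C had 72.1, against 78.3 to 79.2 in the other 3. In EP400 the first MAPT library with RBFOX1N-dCasRx-C had 85.1, against 94.1 to 95.2. In MINDY1 the second MAPT library with dCasRx-RBM25 had 32.5, against 20.5 to 24 in the other 5. In NPAS1 that same library had 73.5, against 61.1 to 65.7. It also had the highest share of RBM25 counts, 5.69%.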

How the results depend on the processing

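Leaving out each library in turn gave 5 to 17 pairs for dCasRx-RBM25 against dCasRx, 0 to 14 for RBFOX1N-dCasRx-C against dCasRx and 18 to 30 for dCasRx-RBM25 against RBFOX1N-dCasRx-C. Where 1 library of a group was left, it was assumed to vary like the other groups. The low ends of the first and second were reached without the second dCasRx library (5 and 0), and without the first they were 11 and 3. With the nontargeting guide only, 2 libraries a group, 7 pairs were called for dCasRx-RBM25 against dCasRx and 11 for dCasRx-RBM25 against RBFOX1N-dCasRx-C. With no minimum of reads of the less used form, which tests more events, these were 8 and 16. With at least 50 reads in each library, which tests fewer, 12 were called for dCasRx-RBM25 against RBFOX1N-dCasRx-C. A limit of 5 points gave 26, 23 and 77 in the 3 comparisons. Fitting only the effectors compared gave 14, 13 and 25, and limma on logit values 14, 8 and 19. For the guides 0 pairs were called under every alternative run.

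The replicate numbers did not pair the libraries. Deviations of same-numbered libraries from their group means correlated by -0.098 to 0.166 in expression and by -0.070 to 0.074 in site use over 15 pairs of groups, and the replicate block gave 15, 11 and 23 called pairs and 10, 14 and 24 called factors in the 3 comparisons.

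For the 3' splice site factors, leaving out each library gave 0 to 13 called in dCasRx-RBM25 against dCasRx, 2 to 15 in RBFOX1N-dCasRx-C against dCasRx and 9 to 22 in dCasRx-RBM25 against RBFOX1N-dCasRx-C. In the first comparison the second dCasRx library decided the lowest count (0 without it), and without the first there were 13; leaving out the first or the second CD46 library with dCasRx-RBM25 gave 3 and 5. In the second comparison there were 2 without the second dCasRx library, and 7 without the first nontargeting or the second MAPT library with RBFOX1N-dCasRx-C. In the third, leaving out each of the 4 libraries with RBFOX1N-dCasRx-C gave 13, 11, 9 and 13. With the nontargeting guide only, 3, 4 and 5 factors were called, and RLE size factors gave 5 in dCasRx-RBM25 against dCasRx. DESeq2 gave 7, 11 and 21. Of the named pairs none changed direction under any alternative run. Pairs with few reads limit the precision: 17161 pairs had too few reads of the less used form to be tested at all, and comparisons with dCasRx rest on 2 libraries.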
